A study of Mus musculus with 4 samples.

Results

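The Ebf1 neurons of the medial and caudal ganglionic eminences (MGE and CGE) are 181 cells, 73 from the MGE and 108 from the CGE, out of 16544 quality-filtered cells of embryonic mouse forebrain. They were selected by level of transcript: Dcx, a microtubule-associated protein of newborn neurons, above 1.5 on the scale ln(1 + UMIs per 10000), at least 2 unique molecular identifiers (UMIs, each a counted mRNA molecule) of Ebf1, and no UMI of Lhx6, Lhx8 or Neurod6. The study profiled 4 regions by droplet single-cell RNA sequencing (10x Genomics): the MGE, the CGE, the lateral ganglionic eminence (LGE) and the dorsal cortex (CTX). Used here was 1 library for each region. Every library used came from wt mice at E12.5, with tissue pooled over embryos. The study also describes libraries from reporter mice and from a later age, which were not used here. By the labels the cells were sorted as live, by the methods they were not sorted, and a sort could alter the shares of cells given here. With 1 library for each region, a difference between regions cannot be told apart from a difference between libraries, and no p-value is given for one.

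Ebf1 belongs to the early B-cell factors, helix-loop-helix transcription factors that act as neurons leave the progenitor zones and begin to differentiate. In the ventral forebrain Ebf1 is known from the LGE, where it is needed by newborn projection neurons of the direct striatal pathway, a lineage that also carries the LIM homeodomain factor Isl1. The study itself described clusters with Ebf1 and Mapt but without Sp9 in both its LGE and its CGE cells. It proposes that they are likely GABAergic projection neurons. The MGE is known mainly as the source of Lhx6-expressing interneurons and of Lhx8-expressing cholinergic and pallidal neurons, and the CGE as a source of Nr2f2-expressing interneurons. Isl1- and Ebf1-expressing cells that derive from the LGE and settle in the MGE mantle, where they guide thalamic axons, are also known as corridor cells. The question here was what the Ebf1-positive cells of the MGE and CGE libraries share with LGE cells of the same gate, and how they differ from the other neurons of their own library.

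Of the high-Dcx cells, 73 of 2272 in the MGE and 108 of 2330 in the CGE passed the gate, a share of 3.21% in the MGE (exact Clopper-Pearson 95% interval 2.53 to 4.02%) and 4.64% in the CGE (3.82 to 5.57%). The same gate took 495 of 2198 high-Dcx cells in the LGE, or 22.5% (20.8 to 24.3%), and 1 of 816 in the CTX. These intervals, like every interval below, cover counting error only. Ebf1 neurons were thus rarer in MGE and CGE than in the LGE, with intervals that did not overlap. The cortical share is not comparable: Neurod6 is a gene of cortical projection neurons, only 26 of the 775 high-Dcx CTX cells with no Ebf1 UMI lacked Lhx6, Lhx8 and Neurod6, and the condition on these genes removed 9 CTX cells with 2 or more Ebf1 UMIs. Among high-Nestin cells (Nes above 1.5 on the same scale), progenitors in which free RNA and early transcription are measured together, the gate without its Dcx condition took 4 of 520 MGE cells, 2 of 165 CGE cells and 12 of 589 LGE cells. The neurons left after Ebf1-positive cells were set aside were 2163 in the MGE, 2132 in the CGE and 1583 in the LGE, all with no Ebf1 UMI, and they are called Ebf1-negative below. In the MGE most of them held Lhx6, Lhx8 or Neurod6: only 240 of 2163 held no UMI of Lhx6, Lhx8 or Neurod6, as the Ebf1 neurons do by the gate, against 1478 of 2132 in the CGE and 1337 of 1583 in the LGE. These 240, 1478 and 1337 cells are called matched Ebf1-negative cells, and ratios to them are given beside those to all Ebf1-negative cells where the value turns on the choice. Median depth was 7034 UMIs per Ebf1 neuron in the MGE, 7662 in the CGE and 6763 in the LGE, against 6362, 6669 and 6396 UMIs in the Ebf1-negative cells. Between 4 and 15 barcodes were shared by any pair of libraries, and no Ebf1 neuron carried a shared barcode.

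Just outside it, 4 MGE cells and 26 CGE cells held exactly 1 Ebf1 UMI. Just inside it, 3 MGE cells and 7 CGE cells held exactly 2. Summed over its cells and given as UMIs per 1000000 UMIs of the class (CPM), Isl1 stood at 193 in the CGE cells with 1 Ebf1 UMI, at 211 in those with 2, and at 1326 in the 101 with 3 or more. The conditions on Lhx6, Lhx8 and Neurod6 removed a further 19 MGE cells, of which 14 held Lhx6 and 10 held Lhx8, and 48 CGE cells, of which 42 held Neurod6. The 19 removed MGE cells still held 556 CPM of Isl1 and 1715 CPM of Zfhx3, along with 329 CPM of Nkx2-1. The 48 removed CGE cells held 113 CPM of Isl1 and 14.7 CPM of Zfp503, against 1267 and 348 CPM in those that were kept. All of these values describe the gate and were not tested.

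The label was checked first against its markers. In addition to Ebf1, which the gate required, Isl1 was present at 1054 CPM in MGE Ebf1 neurons (exact Poisson 95% interval 967 to 1146), at 1267 CPM in CGE Ebf1 neurons (1195 to 1343) and at 888 CPM in LGE Ebf1 neurons (858 to 919). Mapt, the axonal microtubule protein tau, was measured at 1015 CPM in the MGE cells, 1075 CPM in the CGE cells and 463 CPM in the LGE cells. With each cell thinned to 3000 UMIs so that depth did not set the result, 82.9% of MGE Ebf1 neurons (72.0 to 90.8%) and 80.6% of CGE Ebf1 neurons (71.8 to 87.5%) held an Isl1 UMI, beside 81.6% in the LGE (77.9 to 84.9%). Without thinning the shares were 87.7%, 88.0% and 93.3%. The high-Nestin progenitors of the same libraries, a measure of the background, held an Isl1 UMI in 4.40%, 3.39% and 6.05% of cells. Isl1 and Mapt were therefore found in most of the gated cells of every eminence, as the label has it.

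Markers of other cell types were examined next. No MGE Ebf1 neuron held a UMI of the glutamatergic list, whose summed level was 0 CPM there, while 8 of the 108 CGE Ebf1 neurons and 4 of the 495 LGE Ebf1 neurons did. The summed level of that list was 150 CPM in CGE Ebf1 neurons and 41.3 CPM in CGE Ebf1-negative cells. Neurog2, a proneural factor of cortical progenitors, gave 51 UMIs in CGE Ebf1 neurons, all from 3 cells. In the test described below, none of the 7 genes of that list tested was called. Against matched cells 2 of the 4 tested were higher, beside 10.5% of all genes. These were Slc17a6 (log2 fold change 2.27, adjusted p = 0.037 in the edgeR test) and Neurog2 (2.60, adjusted p = 0.032 in the edgeR test). Slc17a6 in CGE Ebf1 neurons was 4.55-fold (2.48 to 8.02) the matched level. Neurog2 was 9.51-fold (6.43 to 14.03) the matched level in the CGE and 0.750-fold (0.0760 to 3.94) in the LGE. With the cells carrying a glutamatergic gene removed, 1124 genes were higher and 1123 lower in the test described below, and Isl1 kept its call. The endothelial list summed to at most 4.45 CPM in any group of Ebf1 neurons. The mural and mesenchymal list summed to 77.8 CPM in CGE Ebf1 neurons and at most 1.93 CPM in the other regions, and 1 CGE cell held 3 or more of its markers. The diencephalic list summed to 7.70 CPM in the MGE and 26.7 CPM in the CGE, with Otp and Foxb1 at 0 in both. Trp73, Lhx1 and Lhx5, which define Cajal-Retzius cells, were also at 0 in the Ebf1 neurons of every eminence. The whole Cajal-Retzius list, however, summed to 119 CPM in MGE Ebf1 neurons and 179 CPM in CGE Ebf1 neurons, against 41.8 and 58.3 CPM in the Ebf1-negative cells, and to 50.7 against 47.9 CPM in the LGE. Most of this came from Reln, at 17.3 and 50.02 CPM, and Cacna2d2, at 100.2 and 113.4 CPM, which in the CGE were 3.76-fold (2.45 to 5.77) and 3.15-fold (2.41 to 4.11) the level of LGE Ebf1 neurons. Of the 5 genes of that list tested as described below, Reln was higher and Calb2 lower, and their part in the results was not tested. Chat and Slc18a3, which define cholinergic neurons, were at 0 as well.

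To find what set these cells apart within their own libraries, UMIs were summed over Ebf1 neurons and over Ebf1-negative cells of each eminence and compared with edgeR's quasi-likelihood test, with the library as a block and Benjamini-Hochberg adjustment over all genes. The 3 pairs of sums come from 3 different regions, so a call rests on what LGE, MGE and CGE share. Leaving out the genes of the gate, 1013 of 12789 genes (7.92%) were higher and 1055 (8.25%) were lower in Ebf1 neurons. Of these, 1004 of the higher and 1050 of the lower genes had that direction in both the MGE and the CGE. Both regions are in the fit that made the calls, which favours genes with such agreement, so it is not separate evidence. The numbers of called genes fell to 673 higher and 512 lower without the LGE library, and to 668 higher and 728 lower without the MGE library. Against the matched Ebf1-negative cells 1151 of 10938 genes (10.5%) were higher and 1074 (9.82%) were lower.

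**Figure D1:**
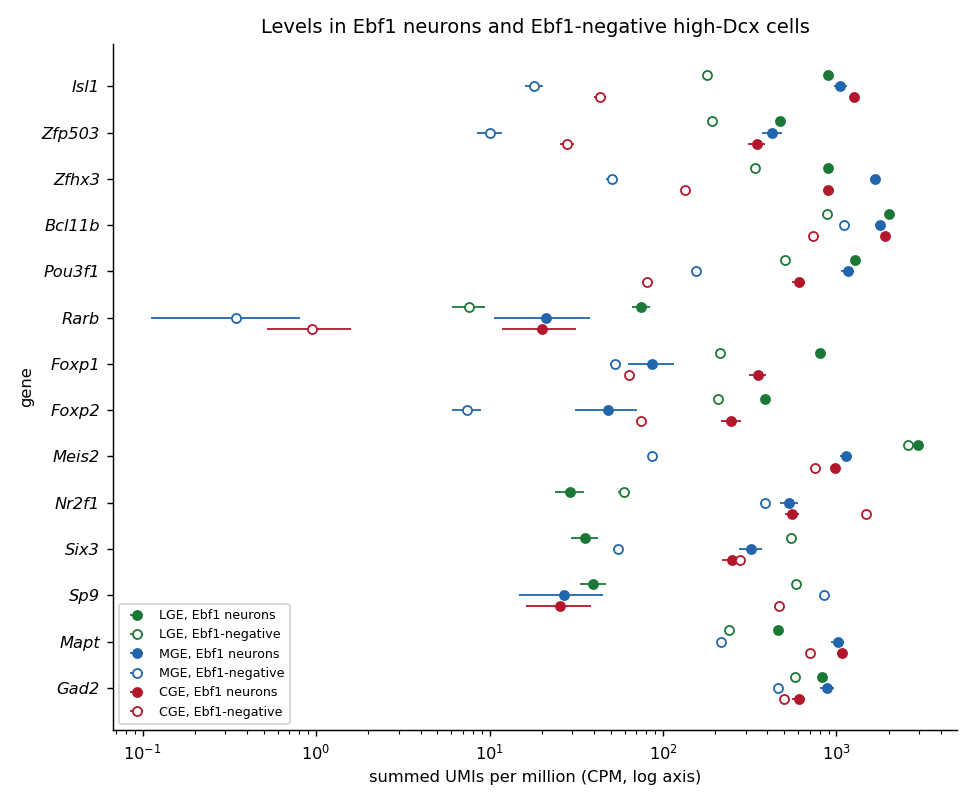
CPM (log axis) of 14 genes in Ebf1 neurons (filled circles) and Ebf1-negative high-Dcx cells (open circles) of LGE, MGE and CGE, 1 library each, with exact Poisson 95% intervals for counting error. Isl1 and Zfp503 differ by less than 2-fold between the Ebf1 neurons of the 3 libraries while all Ebf1-negative cells of the MGE, most of them with Lhx6, Lhx8 or Neurod6, lie at 18.1 and 10.1 CPM, and Foxp1 and Foxp2 are low in MGE Ebf1 neurons.

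Transcription factors of striatal projection neurons were examined first. Of the 15 genes of that list that were tested, 10 were higher and 2, Meis1 and Mef2c, were lower in Ebf1 neurons, beside 7.92% and 8.25% of all genes tested. The median log2 fold change of the list was 1.55, beside -0.04 over all genes tested. Isl1 rose by a log2 fold change of 4.33 ± 0.62 (SE, adjusted p = 0.0026 in the edgeR test). Its level in the Ebf1-negative cells was 18.1 CPM in the MGE, 43.4 CPM in the CGE and 180 CPM in the LGE, so that the Ebf1 neurons exceeded them 58.2-fold in the MGE, 29.2-fold in the CGE and 4.93-fold in the LGE. Against the matched cells, which held 106 CPM in the MGE, 59.4 CPM in the CGE and 186 CPM in the LGE, the ratios were 9.90 (8.24 to 11.96) in the MGE, 21.3 (19.3 to 23.6) in the CGE and 4.77 (4.50 to 5.06) in the LGE, and the log2 fold change was 3.31 ± 0.36 (adjusted p = 0.00029 in the edgeR test). The list as a whole kept 10 of 15 genes higher against matched cells, with 1 lower and a median of 1.19. Against matched cells 10.5% of all genes were higher and 9.82% were lower.

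Zfp503, a zinc finger repressor of the developing striatum, also rose. It reached 424 CPM in MGE Ebf1 neurons and 348 CPM in CGE Ebf1 neurons, against 10.1 and 28.04 CPM in the Ebf1-negative cells, and 471 against 192 CPM in the LGE (log2 fold change 3.34 ± 0.66, adjusted p = 0.012 in the edgeR test). Zfhx3, a zinc finger homeodomain factor, stood at 1674 CPM in MGE Ebf1 neurons, 897 CPM in CGE Ebf1 neurons and 891 CPM in LGE Ebf1 neurons, against 50.6, 134 and 339 CPM in the Ebf1-negative cells (2.99 ± 0.59, adjusted p = 0.012 in the edgeR test). Matched Ebf1-negative cells of the MGE held 74.8 CPM of Zfp503 and 203.5 CPM of Zfhx3, so that the MGE ratios were 5.67 (4.47 to 7.23) and 8.23 (7.18 to 9.44) against these, and both genes still passed the test (2.24 ± 0.32 and 2.20 ± 0.28, adjusted p = 0.0015 and 0.00081 in the edgeR test). A UMI of each of Isl1, Zfp503 and Zfhx3 was found in 58 of 73 MGE Ebf1 neurons, 81 of 108 CGE Ebf1 neurons and 383 of 495 LGE Ebf1 neurons, or 79.5%, 75% and 77.4%, at the cells' own depth.

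The retinoic acid receptor gene Rarb reached 21.2 CPM in the Ebf1 neurons of the MGE and 20.0 CPM in those of the CGE, while it was nearly absent from their Ebf1-negative cells at 0.344 and 0.950 CPM. In LGE Ebf1 neurons it reached 74.5 CPM (3.92 ± 0.42, adjusted p = 0.00061 in the edgeR test). Bcl11b, a zinc finger factor that projection neurons and interneuron precursors of the eminences both express, differed less. It was at 1790, 1897 and 2020 CPM in Ebf1 neurons of MGE, CGE and LGE, against 1111, 736 and 876 CPM in Ebf1-negative cells (1.07 ± 0.14, adjusted p = 0.0017 in the edgeR test). Sox8, Rxrg and Bcl11a were the other factors of the list that rose over the 3 pairs. In the MGE, however, Sox8 was at 11.6 CPM in Ebf1 neurons and 11.5 CPM in matched cells, and Rxrg at 13.5 and 12.2 CPM. Pou3f1, a POU domain factor from the list of LGE regional genes, reached 1158 CPM in the Ebf1 neurons of the MGE, 605 CPM in those of the CGE and 1276 CPM in those of the LGE, and also passed the test (2.36 ± 0.30, adjusted p = 0.0014 in the edgeR test).

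Foxp1 and Foxp2, forkhead factors of the striatum, were higher over the 3 pairs, but not to the same degree in each region. Foxp1 reached 800 CPM in LGE Ebf1 neurons and 352 CPM in CGE Ebf1 neurons, whereas the MGE Ebf1 neurons held 86.7 CPM, only 1.63-fold (1.18 to 2.21) above the 53.1 CPM of MGE Ebf1-negative cells. Foxp2 was at 386, 248 and 48.2 CPM in LGE, CGE and MGE. A UMI of either gene was present in 85.9% of LGE, 62.0% of CGE and 34.3% of MGE Ebf1 neurons. After thinning, Foxp1 was found in 12.9% of MGE Ebf1 neurons (6.05 to 23.0%), beside 23.99% of MGE high-Nestin cells (20.5 to 27.8%) and 11.3% of MGE Ebf1-negative cells, so this share was not above the background. Meis2, the TALE homeodomain factor that is abundant throughout the LGE, did not pass the test (1.28 ± 0.60, adjusted p = 0.20 in the edgeR test). In the MGE it was 13.1-fold (11.8 to 14.4) higher in Ebf1 neurons, at 1131 against 86.7 CPM, and 2.81-fold (2.50 to 3.16) higher than the 402 CPM of matched cells. In the CGE it was 979 against 749 CPM and in the LGE 2935 against 2574 CPM. Against matched cells the ratio was 0.950 (0.886 to 1.02) in the CGE, where these held 1031 CPM, and 1.04 (1.02 to 1.07) in the LGE.

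**Figure D2:**
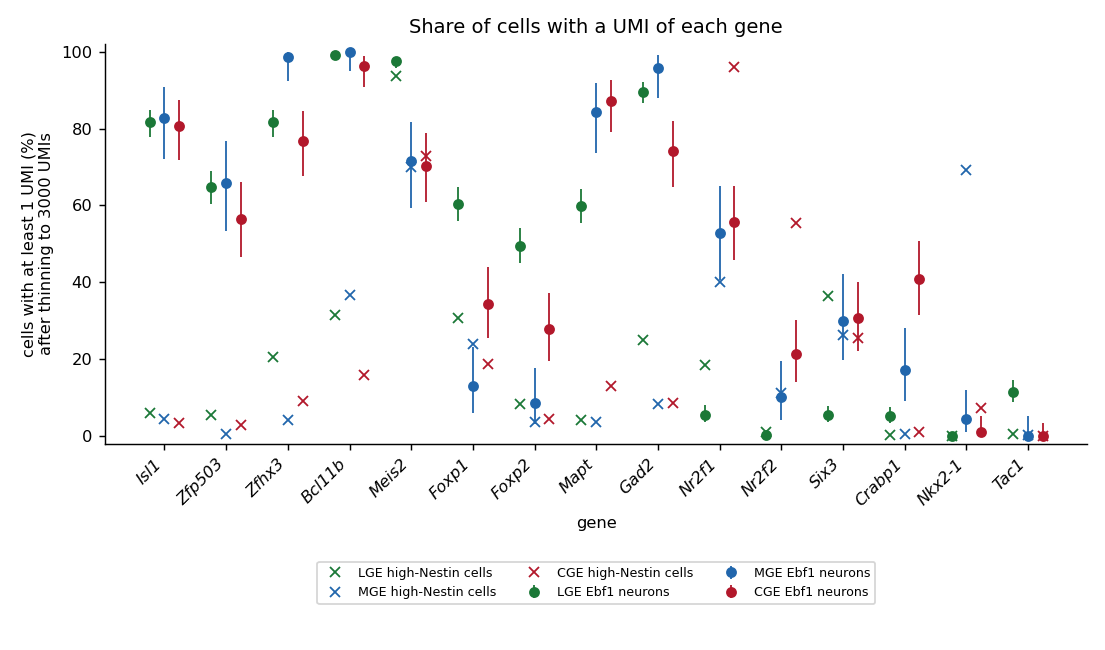
Share of cells with at least 1 UMI of 15 genes after each cell was thinned to 3000 UMIs, for Ebf1 neurons (circles, with exact Clopper-Pearson 95% intervals) and high-Nestin progenitors (crosses) of LGE, MGE and CGE. Isl1 lies between 80.6% and 82.9% in Ebf1 neurons of the 3 libraries, while Foxp1 falls from 60.3% in the LGE to 34.3% in the CGE and 12.9% in the MGE.

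Most genes of the MGE and CGE regional lists were lower in Ebf1 neurons than in Ebf1-negative cells, but Nr2f1, given below, was not called in this test. Of the 9 genes of the MGE list that were tested, 7 were lower and none was higher (median log2 fold change -4.32). Of the 8 genes of the CGE list, 6 were lower (median -3.16). Over all genes tested, 8.25% were lower and 7.92% were higher. The summed CGE list, however, was at 581.8 CPM in MGE Ebf1 neurons against 610.5 CPM in MGE Ebf1-negative cells, and at 769.2 against 2492 CPM in the CGE. Lhx6 and Lhx8 were at 0 by the gate, and a gate that removes Lhx6-positive cells also acts on genes that travel with Lhx6, so the same test was run with Ebf1-negative cells that themselves held no Lhx6, Lhx8 or Neurod6. Against these matched cells 7 of the 8 genes tested of the MGE list and 6 of the 8 of the CGE list were lower, beside 9.82% of all genes. Nkx2-1, the homeodomain factor that specifies the MGE, was at 42.4 CPM in MGE Ebf1 neurons against 669 CPM in all and 334 CPM in matched MGE Ebf1-negative cells (-4.20 ± 0.27 and -2.92 ± 0.26, adjusted p = 8.5e-05 and 0.00012 in the edgeR test). It was at 2.22 CPM in CGE Ebf1 neurons and at 0 in LGE Ebf1 neurons. After thinning, 4.29% of MGE Ebf1 neurons (0.893 to 12.0%) held an Nkx2-1 UMI, beside 64.7% of MGE Ebf1-negative cells.

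Nr2f2, the orphan nuclear receptor that marks CGE-derived interneurons, was at 161 CPM in CGE Ebf1 neurons against 648 CPM in CGE Ebf1-negative cells, and at 38.5 against 95.1 CPM in the MGE (-1.82 ± 0.20, adjusted p = 0.00063 in the edgeR test). Its relative Nr2f1 did not pass the test (-0.68 ± 0.30, adjusted p = 0.18 in the edgeR test). In the CGE it was 555 CPM in Ebf1 neurons and 1478 CPM in Ebf1-negative cells, and in the MGE 534 and 385 CPM. Against matched cells, which held 789 CPM in the MGE, Nr2f1 was lower in all 3 libraries and fell by 0.92 ± 0.16 on the log2 scale (adjusted p = 0.0035 in the edgeR test), so its direction in the MGE turned with the choice of comparison cells. Prox1, a homeodomain factor of CGE interneurons, was also lower, at 23.3 against 163 CPM in the CGE and 3.85 against 84.2 CPM in the MGE (-3.001 ± 0.24, adjusted p = 0.00016 in the edgeR test).

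The genes with the largest differences over the 3 pairs named more of the contrast. The 10 that rose most, among genes of at least 50 CPM in both MGE and CGE Ebf1 neurons, were Klf5, Sybu, Crabp1, Itm2a, Hs6st2, Mgat4c, Isl1, Ecel1, Nefl and Cpne5. Sybu encodes syntabulin, a kinesin adaptor that carries cargo along axons. It stood at 146 CPM in MGE Ebf1 neurons and 223 CPM in CGE Ebf1 neurons, against 1.72 and 5.57 CPM in the Ebf1-negative cells (5.60 ± 0.22, adjusted p = 2.0e-05 in the edgeR test). Klf5, a zinc finger factor, was at 108 and 63.4 CPM against 0.964 and 0.747 CPM (5.66 ± 0.52, adjusted p = 0.00029 in the edgeR test). Ecel1, a membrane peptidase of neurons, was at 150 and 123 CPM against 5.30 and 8.42 CPM. Nefl, the light neurofilament subunit, was at 218 and 208 CPM against 1.38 and 14.1 CPM. None of these 4 belongs to the striatal list. In the MGE their ratios to all Ebf1-negative cells were 85.01 for Sybu, 112 for Klf5, 28.3 for Ecel1 and 158 for Nefl. Against the matched MGE cells these became 101.8 (27.2 to 856) for Sybu, 30.0 (12.1 to 95.99) for Klf5, 11.6 (6.89 to 20.6) for Ecel1 and 33.6 (17.1 to 75.5) for Nefl, and all 4 passed the test there, with adjusted p between 1.4e-06 and 9.7e-05 in the edgeR test.

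**Figure D3:**
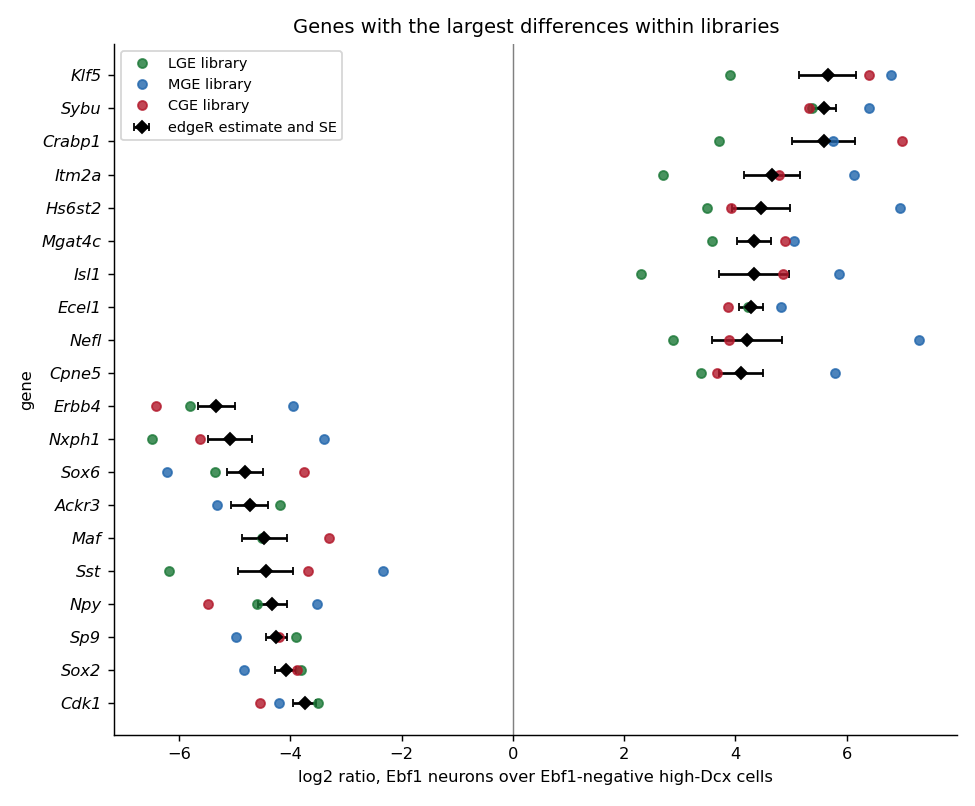
Log2 ratio of Ebf1 neurons over Ebf1-negative high-Dcx cells for the 10 genes with the largest rise and the 10 with the largest fall, as the edgeR estimate over 3 pairs with its standard error (diamonds) and as the plain ratio in each library (circles; Ackr3 in the CGE and Maf in the MGE, at 0 UMIs in Ebf1 neurons, have no circle). The genes were chosen to have the same direction in 3 of 3 libraries, so all circles lie on the side of their estimate by construction, and what varies is the distance between the circles of a gene.

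The 10 that fell most were Erbb4, Nxph1, Sox6, Ackr3, Maf, Sst, Npy, Sp9, Sox2 and Cdk1. Most are known from migrating interneurons: Erbb4 is a neuregulin receptor, Ackr3 a chemokine receptor, Sox6 and Maf are transcription factors, and Sst and Npy encode neuropeptides. Erbb4 measured 5.78 CPM in the Ebf1 neurons of the MGE and 1.11 CPM in those of the CGE, against 89.55 and 94.97 CPM in the Ebf1-negative cells (-5.33 ± 0.33, adjusted p = 6.9e-05 in the edgeR test). Against the matched cells without Lhx6, Lhx8 and Neurod6 it still fell by 4.60 on the log2 scale (adjusted p = 3.1e-05 in the edgeR test). Sp9, a zinc finger factor of interneurons and of indirect-pathway striatal neurons, was at 27.0 and 25.6 CPM against 847 and 468 CPM (-4.25 ± 0.19, adjusted p = 3.8e-05 in the edgeR test). It was low in LGE Ebf1 neurons too, at 39.6 against 588 CPM. Of the 6 genes of the indirect-pathway list that were tested, 4 were lower in Ebf1 neurons and none was higher. Among all genes tested 8.25% were lower and 7.92% were higher.

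GABAergic genes were split. Gad2, which encodes an enzyme of GABA synthesis, reached 878 CPM in the Ebf1 neurons of the MGE, 607 CPM in those of the CGE and 830 CPM in those of the LGE (0.56 ± 0.13 over the Ebf1-negative cells, adjusted p = 0.021 in the edgeR test), a call that was lost without the LGE library (adjusted p = 0.054) or without the MGE library (adjusted p = 0.077), with Mapt-positive cells only (adjusted p = 0.0504) and with 1 Ebf1 UMI as the limit (adjusted p = 0.0526, all in the edgeR test). No MGE Ebf1 neuron and 9 CGE Ebf1 neurons lacked a Gad2 UMI. Gad1, the other such enzyme, fell (-0.94 ± 0.16, adjusted p = 0.0057 in the edgeR test), and Slc32a1, the vesicular GABA transporter, was measured at 239 CPM in the Ebf1 neurons of the MGE and 206 CPM in those of the CGE, against 223 and 229 CPM. Of the Dlx homeobox genes, Dlx1 and Dlx2 fell by 3.12 and 3.45 on the log2 scale (adjusted p = 0.00012 for each in the edgeR test). Dlx6 rose by 1.29 ± 0.11 (adjusted p = 0.00022 in the edgeR test), from 135 to 349 CPM in the MGE and from 77.0 to 187 CPM in the CGE. In all, 2 of the 10 genes of this list were higher and 6 were lower, beside 7.92% and 8.25% of all genes tested.

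Genes of neuronal maturity rose and those of cycling progenitors fell. Of 13 maturity genes, 10 were higher and none was lower (median log2 fold change 1.23), beside 7.92% higher and 8.25% lower among all genes tested. Gap43, a growth cone protein, was found at 963 CPM in the Ebf1 neurons of the MGE and 903 CPM in those of the CGE, against 64.3 and 258 CPM in the Ebf1-negative cells (2.41 ± 0.38, adjusted p = 0.0043 in the edgeR test), and Ina, a neuronal intermediate filament, was at 1741 and 1642 CPM against 262 and 790 CPM. Of 12 progenitor and cycle genes, 9 were lower and none was higher (median -2.02), among them Sox2, Mki67, Top2a and Ccnd2. Maturity thus moved with the contrast. When only cells with a Mapt UMI were kept on both sides, 581 of 11665 genes (4.98%) were higher and 543 (4.65%) were lower. Of the 15 striatal factors, 10 were then higher and 1 was lower. Of the 13 maturity genes, 8 were still higher and 1 was lower, and 7 of 11 progenitor and cycle genes were still lower. This selection therefore did not make the 2 sides equal in maturity. Mapt itself was no longer called, at a log2 fold change of 0.57 (adjusted p = 0.12 in the edgeR test), but both sides had been selected on it.

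Among 38 tested genes of axon guidance and adhesion, 7 were higher and 7 were lower, with a median log2 fold change of -0.11. Over all genes tested, 7.92% were higher and 8.25% were lower, with a median of -0.04. Ephb1, an ephrin-B receptor, measured 231 CPM in MGE and 243 CPM in CGE Ebf1 neurons against 9.71 and 25.6 CPM (3.601 ± 0.26, adjusted p = 0.00012 in the edgeR test). Robo2, a Slit receptor, was at 364 and 716 CPM against 180 and 75.01 CPM (2.11 ± 0.36, adjusted p = 0.0057 in the edgeR test). The adhesion molecules Cntn2 and L1cam, the repellent Sema3a, the ephrin Efna5 and the neuregulin Nrg1 were the others that rose. Of 15 transmitter and neuromodulator receptors, 7 were higher and 1 was lower. Cnr1, the cannabinoid receptor of axons, measured 193 CPM in MGE and 192 CPM in CGE Ebf1 neurons against 6.48 and 18.3 CPM (3.91 ± 0.27, adjusted p = 9.8e-05 in the edgeR test), and Grin2b, an NMDA receptor subunit, at 82.8 and 186 CPM against 11.2 and 55.4 CPM.

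The Ebf1 neurons of MGE and CGE were next set beside those of the LGE. A gene was counted as different where it reached 50 CPM in either group and the exact 95% interval of the ratio lay wholly past 2-fold. By this rule 64 of 4088 genes (1.57%) were higher and 23 (0.563%) were lower in MGE than in LGE Ebf1 neurons. In CGE Ebf1 neurons 98 of 4066 genes (2.41%) were higher and 40 (0.984%) were lower. Both comparisons share the LGE cells, and the intervals hold counting error but not the spread between libraries. The counts are thus descriptions of these libraries.

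Isl1, Zfp503, Zfhx3 and Bcl11b were not past 2-fold by this rule in either comparison. Isl1 was 1.19-fold (1.08 to 1.30) the LGE level in the MGE and 1.43-fold (1.33 to 1.53) in the CGE, while it was 0.101-fold and 0.241-fold the LGE level among all Ebf1-negative cells and 0.572-fold and 0.319-fold among matched ones. Zfp503 was 0.900-fold (0.779 to 1.04) and 0.739-fold (0.653 to 0.834). Zfhx3 was 1.88-fold (1.74 to 2.02) the LGE level in the MGE, where it was also 1.87-fold (1.69 to 2.06) that of CGE Ebf1 neurons, and 1.01-fold in the CGE. Bcl11b was 0.886-fold and 0.939-fold. In the MGE, Zfp503 and Zfhx3 were 0.0525-fold and 0.149-fold the LGE level among all Ebf1-negative cells and 0.374-fold and 0.552-fold among matched ones.

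**Figure D4:**
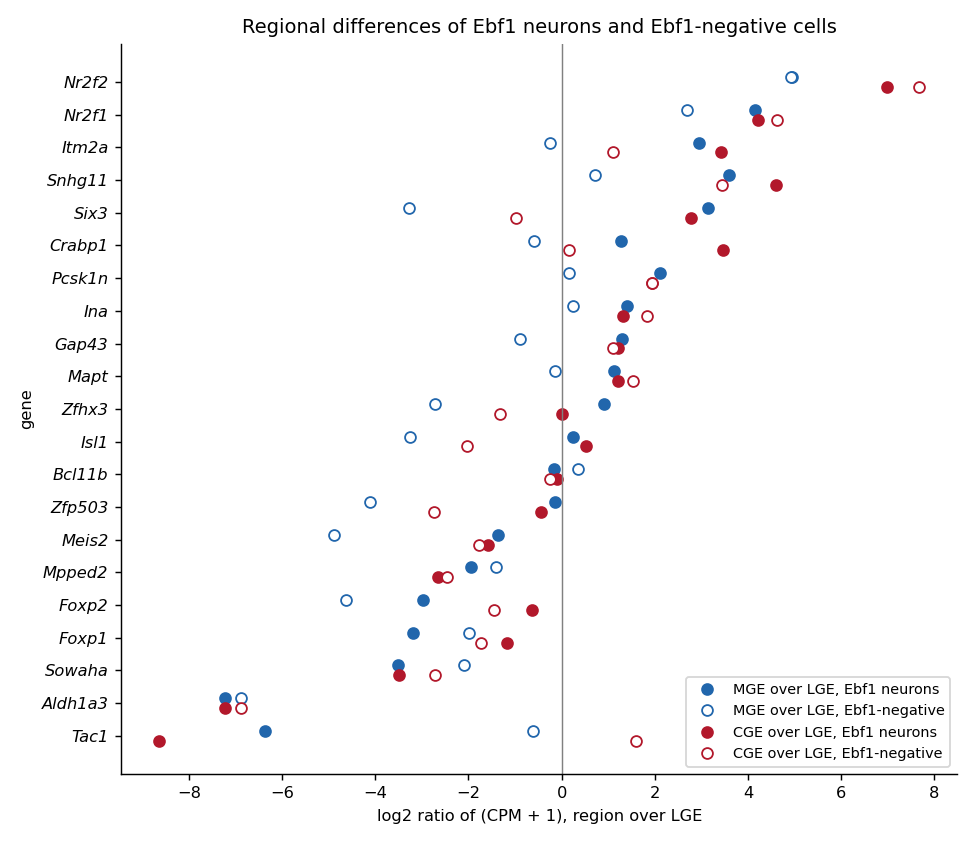
Log2 ratio of (CPM + 1) of MGE (blue) and CGE (red) over LGE for 21 genes, in Ebf1 neurons (filled) and in all Ebf1-negative high-Dcx cells (open; in the MGE mostly cells with Lhx6, Lhx8 or Neurod6), 1 library per region. For Isl1 and Zfp503 the filled points lie near 0 and the open points well below it, for Six3 the filled points lie above 0 and the open points below it, and for Nr2f1 and Nr2f2 filled and open points lie on the same side.

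Other striatal genes were lower. Tac1, the precursor of substance P in direct-pathway neurons, gave 1435 UMIs in LGE Ebf1 neurons (397 CPM), 2 UMIs in MGE Ebf1 neurons and none in CGE Ebf1 neurons. The LGE level was 103-fold (28.5 to 852) the MGE level and, with 3 counts over the summed cells as the floor, at least 119-fold higher than the CGE level. Aldh1a3, the enzyme that makes retinoic acid in the LGE, was at 148 CPM in LGE Ebf1 neurons and at 0 in those of MGE and CGE, at least 25.5-fold and 44.3-fold lower. It was nearly absent from the Ebf1-negative cells of both regions as well, with 0.0689 CPM in the MGE against 125 CPM in the LGE. Foxp1 was 9.23-fold (6.88 to 12.7) higher in LGE than in MGE Ebf1 neurons and 2.27-fold (2.02 to 2.56) higher than in CGE Ebf1 neurons. Meis2 was 2.60-fold (2.39 to 2.83) and 2.997-fold (2.80 to 3.21) higher in the LGE, and Mpped2, a phosphodiesterase abundant in the LGE, 3.86-fold (3.12 to 4.83) and 6.33-fold (5.15 to 7.87) higher. Of the 13 striatal factors compared between MGE and LGE, 4 were past 2-fold lower and none was higher, beside 0.563% and 1.57% of all genes compared. Of 14 between CGE and LGE, again 4 were lower and none was higher, beside 0.984% and 2.41%. The median log2 ratios were -0.45 and -0.54, beside -0.02 and -0.06 over all genes compared.

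Higher than in the LGE were the COUP factors, Six3, Crabp1 and Itm2a. Nr2f1 was at 29.1 CPM in LGE Ebf1 neurons and was 18.4-fold (14.6 to 23.2) higher in MGE and 19.1-fold (15.4 to 23.8) higher in CGE Ebf1 neurons. Nr2f2 gave 1 UMI in all LGE Ebf1 neurons, against 20 UMIs in the MGE and 145 in the CGE, or 139-fold (22.2 to 5767) and 582-fold (103 to 23148) higher in CPM. The Ebf1-negative cells of the MGE and CGE also exceeded those of the LGE, 6.495-fold and 24.96-fold for Nr2f1. Six3, a homeodomain factor of the anterior forebrain, was 9.02-fold (7.12 to 11.4) higher in MGE and 7.06-fold (5.66 to 8.84) higher in CGE Ebf1 neurons than in LGE Ebf1 neurons, at 320, 250 and 35.4 CPM, while in all Ebf1-negative cells it was highest in the LGE, at 55.0, 277 and 545 CPM, and so it was in the matched ones, at 236, 384 and 602 CPM. Six3 overlaps an antisense gene, as do Nr2f1 and Nr2f2. Other genes named above also overlap a gene on the other strand, among them Ebf1, Mapt, Zfhx3, Pou3f1, Nkx2-1, Sp9, Gad1, Sox6, Maf and Ina. Dlx6, Dlx1, Prox1, Rarb and Nefl do so too, and for Dlx6 that gene is Dlx6os1. These examples are not a full list of the named genes affected. The sources used here do not say if counting used the strand, so these values may include antisense reads.

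Crabp1, a retinoic acid binding protein, separated all 3 regions, with 59.3 CPM in the Ebf1 neurons of the LGE, 145 CPM in those of the MGE and 661 CPM in those of the CGE, and at most 5.16 CPM in any Ebf1-negative cells. After thinning it was found in 5.11%, 17.1% and 40.7% of Ebf1 neurons. Itm2a, a membrane protein, was 8.24-fold (5.53 to 12.3) higher in MGE and 11.4-fold (8.17 to 16.1) higher in CGE than in LGE Ebf1 neurons. Samd5, Pnoc, Slc1a2 and Nrp1 in the MGE and Neurog2, Chl1 and Megf11 in the CGE completed the genes with the highest lower bounds, with Snhg11 in both. Of 12 maturity genes compared, 2 in the MGE (Ina and Gap43) and 4 in the CGE (Ina, Gap43, Mapt and Rbfox3) were past 2-fold higher. None was lower, and the median log2 ratios were 0.56 and 0.43. Over all genes compared, 1.57% in the MGE and 2.41% in the CGE were past 2-fold higher, and 0.563% and 0.984% were lower. Ina was 2.65-fold and 2.50-fold the LGE level in MGE and CGE, and Gap43 2.46-fold and 2.31-fold. Mapt was 2.32-fold (2.14 to 2.52) the LGE level in the CGE and 2.19-fold (1.98 to 2.42) in the MGE, where the interval reached below 2. At the other end, Ccnd2 and Top2a were lower, at 38.5 and 11.6 CPM in MGE and 34.5 and 17.8 CPM in CGE Ebf1 neurons against 213 and 77.5 CPM in the LGE. The part of maturity in the regional differences was not tested beyond keeping only cells with a Mapt UMI.

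Between the MGE and CGE themselves, 15 genes were past 2-fold. Neurog2, Crabp1, Foxp2, Foxp1, Nr2f2, Pcdh19 and Rprm were lower in the MGE, where Foxp2 was 0.194-fold (0.123 to 0.294) and Foxp1 0.246-fold (0.176 to 0.337) the CGE level. Asb4, Peg10, Pcsk2, Plxna2, Sulf2, Rgs2, Zbtb20 and Prkcb were higher in the MGE. Asb4, an adaptor of a ubiquitin ligase, reached 239 CPM in the MGE cells and 43.4 CPM in the CGE cells, a ratio of 5.51 (3.82 to 8.11), and Plxna2, a semaphorin receptor subunit, at 389 and 130 CPM.

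The distance between summed profiles placed these differences on 1 scale. It was taken as the median absolute log2 ratio of CPM over genes of at least 50 CPM in either profile, without the genes of the gate, after every sum had been thinned to 519123 UMIs. MGE and CGE Ebf1 neurons lay closest to each other, at 0.224 ± 0.0023 (SD over 10 draws), the smallest of the 15 distances among the 6 profiles. MGE Ebf1 neurons lay at 0.303 from LGE Ebf1 neurons and at 0.394 from the Ebf1-negative cells of their own library. They lay slightly nearer to the Ebf1-negative cells of the CGE, at 0.292 ± 0.0046, than to LGE Ebf1 neurons, at 0.303 ± 0.0027. For CGE Ebf1 neurons the order was not the same, with 0.327 to LGE Ebf1 neurons and 0.309 to their own Ebf1-negative cells. With matched Ebf1-negative cells lacking Lhx6, Lhx8 and Neurod6 the distance of MGE Ebf1 neurons to their own library was 0.340. The SD over draws holds only the spread from thinning the larger sums. The MGE Ebf1 sum was the smallest, at 519123 UMIs, and so was the same in every draw. Neither its counting error nor the spread between libraries is in the SD, and no difference between distances was tested.

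**Figure D5:**
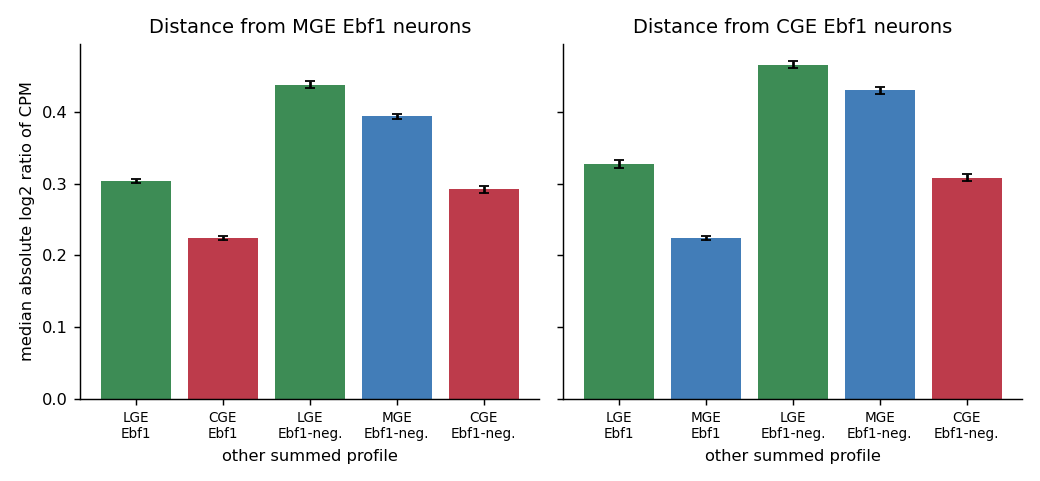
Distance of the summed profile of MGE Ebf1 neurons (left) and CGE Ebf1 neurons (right) from the other 5 profiles, as the median absolute log2 ratio of CPM, bars from 0, with the SD over 10 random thinnings to a common total. The lowest bar in each panel is the Ebf1 neurons of the other region, at 0.224.

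Within each region the cells were not uniform. Of the 108 CGE Ebf1 neurons, 36 held an Nr2f2 UMI, and these had 786 CPM of Isl1 and 1132 CPM of Nr2f1, against 1520 and 252 CPM in the 72 without. The 54 CGE Ebf1 neurons with a Crabp1 UMI had 1569 CPM of Isl1 against 869 CPM in the 54 without it. In the 13 CGE Ebf1 neurons that lacked Isl1, Zfp503 was at 91.3 CPM and Nr2f2 at 1014 CPM, while in the 95 with Isl1 these were 380 and 56.2 CPM. In the MGE, the 9 cells that lacked Isl1 still held 1690 CPM of Zfhx3, close to the 1672 CPM of the 64 with Isl1, and 1605 against 426 CPM of Nr2f1. In both regions, then, Isl1-lacking cells held more of the COUP factors, and in the CGE less Zfp503 and Zfhx3. The 13 MGE Ebf1 neurons with an Nkx2-1 UMI had 1126 CPM of Isl1 and 1531 CPM of Zfhx3, near the 1036 and 1709 CPM of the other 60. These are splits of cells of 1 library each, made on measured values, and were not tested.

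Positions of the genes that lead this account, from GENCODE M21 on GRCm38, are as follows. Ebf1 lies on chromosome 11 at 44617317 to 45008091, Isl1 on chromosome 13 at 116298281 to 116309689, Zfp503 on chromosome 14 at 21983959 to 21989601 and Foxp1 on chromosome 6 at 98925338 to 99522721. The values of each count the whole protein-coding gene, and isoforms were not separated.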

How the data were processed

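Droplet libraries of wild-type E12.5 mouse CTX, LGE, MGE and CGE, 1 for each region, were used. The deposited matrices held unnormalized UMI counts for each gene and barcode, aligned to mm10 (GRCm38) with Cell Ranger (version 3.0.0 in the submitters' processing notes, another release in the file headers). The libraries held between 31451467 and 49794765 UMIs. Barcodes with more than 1500 and fewer than 4500 genes, mitochondrial UMIs below 5% and Hbb UMIs below 1% were kept. Doublets were kept in the main values, and an alternative removed predicted ones (2 of 73 MGE and 5 of 108 CGE Ebf1 neurons).

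Counts were summed per library and class. Classes were compared with edgeR 4.0.16 (TMM, filterByExpr, quasi-likelihood test, library as a block, Benjamini-Hochberg, threshold 0.05, SE from the fold change and F statistic), checked on simulated counts. With 2 residual degrees of freedom, p-values measure the spread of the contrast over 3 libraries. Regions were compared by CPM ratios with exact conditional binomial intervals. Named genes were those of fixed lists, the 10 largest rises and falls at 50 CPM or more in MGE and CGE with the same direction in 3 of 3 libraries, and the 8 highest and 8 lowest ratios to LGE by the bound nearest 1. Genes between MGE and CGE were chosen after their values were seen. Gate, mitochondrial, haemoglobin and sex-linked marker genes were left out. Members and lists were chosen with earlier results of these data known. Positions came from GENCODE M21, in which 42462 feature IDs were matched.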

Additional observations from a re-analysis of the deposited data

Results flagged for a closer look

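Pairs of libraries moved in opposite directions for 2 of the named genes, by more than 2-fold on each side with counting intervals clear of that limit. The difference itself was not tested, since each region had 1 library. Six3 was 5.82-fold (4.89 to 6.88) higher in Ebf1 neurons than in Ebf1-negative cells of the MGE, and 0.0651-fold (0.0542 to 0.0775) their level in the LGE, with 0.902-fold in the CGE. Against matched MGE cells without Lhx6, Lhx8 and Neurod6, which held 236 CPM, the Six3 ratio in the MGE was 1.36 (1.12 to 1.64), no longer past 2-fold. Tac1 was 77.0-fold (59.1 to 102.2) higher in LGE Ebf1 neurons than in LGE Ebf1-negative cells. In the CGE its ratio was 0, with no UMI in Ebf1 neurons against 17.6 CPM in the Ebf1-negative cells.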

How the results depend on the processing

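The named genes kept the direction of their log2 fold change in all alternatives except for 6 genes, none of them called with all libraries: Slc32a1 (0.021 with matched comparison cells, 0.017 with cells carrying a glutamatergic gene removed), Aldh1a3 (-0.32 with Mapt-positive cells only) and, over the fits that left out 1 library, Slc32a1 (-0.054 to 0.051), Plxna2 (-0.27 to 0.19), Six3 (-2.002 to 1.16), Nrp1 (-0.84 to 0.42) and Tac1 (-2.86 to 4.87, the latter without CGE and called there, adjusted p = 0.013 in the edgeR test). Tac1 was also called with no filter on low counts, without the upper gene limit and after thinning. The share of Ebf1 neurons became 4.05% in MGE and 6.70% in CGE with no condition on Lhx6, Lhx8 and Neurod6. With 1 Ebf1 UMI as the limit it was 5.75% in CGE and 26.3% in LGE, and in LGE it was 19.2% with Dcx above 2.0 and 19.0% with cells thinned before the gate. Genes called higher and lower numbered 581 and 543 among Mapt-positive cells and 671 and 606 with Dcx above 2.0, and 643 were lower with 1 Ebf1 UMI. Leaving out a library gave 668 to 701 higher and 512 to 729 lower genes. DESeq2 gave 879 and 740, of which 849 and 737 were also called by edgeR. With 1 Ebf1 UMI, 45 genes were past 2-fold lower in MGE than in LGE. The distance to own Ebf1-negative cells minus that to LGE Ebf1 neurons, 0.091 in MGE, was 0.0815 and 0.1002 with 1 and 3 Ebf1 UMIs, 0.0971 without doublets, 0.104 without the upper gene limit, 0.0812 after thinning, 0.0656 with Dcx above 2.0, 0.0494 for Mapt-positive cells, 0.0980 without glutamatergic cells, 0.0372 with matched cells and 0.0800 with a pseudocount of 10 CPM. In CGE, -0.0185 became -0.0376 with 1 Ebf1 UMI, -0.00678 without the upper gene limit, -0.0338 for Mapt-positive cells and -0.0314 at 100 CPM. The share with an Isl1 UMI was 91.4% in MGE with Dcx above 2.0, and in CGE 68.4% with 1 Ebf1 UMI and 88.0% at the cells' own depth. The causes were not tested. Removing cells with non-neural markers or with a glutamatergic gene was chosen after seeing the data. The library was a block in each fit. No paired analysis was possible because the regions share no replicate beyond a number given in order.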
